A study of Mus musculus with 16 samples.

Results

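Proteasome genes were followed on 16 bead arrays of RNA from mouse CD4-positive T cells. They were chosen by name, as the genes whose symbol in the array's annotation begins with Psm, a letter from a to g and a number. A gene counted as measured when the detection p-value of a probe, which sets its signal against that of negative control beads, fell under 0.05 on 4 or more of 16 arrays, and its brightest such probe stood for it. The rule matched 45 symbols with 67 probes, and 43 of these genes were among the 8480 measured in all. Psmc3ip and Psme3ip1 share the name pattern but are not subunits of the particle, which left 41 proteasome genes: 5 of the alpha ring, 4 structural and 3 constitutive catalytic beta subunits, 3 immunoproteasome subunits, 6 ATPases and 10 other subunits of the regulatory particle, 3 chaperones of its base, 4 activators and 3 assembly chaperones of the core. Psma1 and Psma6, both alpha ring subunits with 1 probe each, had raw intensities of 107.8 to 126.8 and 109.1 to 123.7, with detection on 0 of 16 arrays, and could not be followed. Psmf1, which encodes an inhibitor of the particle, was not among the 45 matched symbols, nor were Psmd3 and Psmg4. They were not analysed here, so the classes named above need not be complete.

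The proteasome degrades proteins tagged with ubiquitin. Its core particle is a stack of rings of alpha and beta subunits that encloses the protease sites, and a regulatory particle binds ubiquitin, removes it and feeds the unfolded substrate in. Lymphoid cells, and other cells exposed to interferon gamma, replace the constitutive catalytic subunits with the immunoproteasome subunits, which favour peptides that fit MHC class I molecules.

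All cells came from MALT1-deficient C57BL/6 mice and had been through retroviral reconstitution. MALT1, a paracaspase, carries antigen receptor signals towards NF-kB activation, and the question was how its 2 splice isoforms act. The groups were cells given MALT1 isoform A and stimulated through CD3 and CD28 for 2.5 h, cells given isoform B and stimulated alike, mock cells stimulated alike, and cells given isoform A and left unstimulated. Each group held 4 arrays, 1 from each of 4 mice, so a mouse number pairs arrays across groups. The age of the mice, the vector's promoter and the share of transduced cells are not given in the sources used here, and unstimulated mock or isoform B cells were not analysed here.

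Median raw intensity was 121.8 to 138.8 on the 16 arrays, and 10247 to 11012 probes were detected on stimulated arrays and 11239 to 12085 on unstimulated ones. Precision is limited by there being 4 arrays per group. The 1 probe annotated to Malt1 had raw intensities of 120.1 to 140.4, with detection on 4 of 16 arrays, and where it lies in the gene is not known here, so it does not check the labels. Of the CD4 T cell markers looked for, 5 of 9 were measured, and Cd4 was detected on 16 of 16 arrays. Among markers of other cells, 6 of 8 for CD8 and cytotoxic cells, 5 of 8 for B cells, 1 of 9 for macrophages and dendritic cells and 2 of 7 for erythroid cells and granulocytes were measured. Cd8a, Lyz2 and Cd14 were detected on 0 arrays and Cd79a on 1, while Cd8b1 was detected on 16, Hba-a1 on 14 and Ms4a1 on 10. Arrays of mice 1 and 2 had a lower highest raw intensity than those of mice 3 and 4, a split that crosses all 4 groups.

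Stimulation of cells with isoform A was set against the same mice's unstimulated cells with isoform A. All 3 immunoproteasome genes fell by more than 2-fold, while the constitutive catalytic genes Psmb5 and Psmb7, the activator gene Psme3, the core assembly chaperone gene Psmg3 and 7 of the 10 non-ATPase genes of the regulatory particle rose. Of 41 proteasome genes, 15 rose and 6 fell at an adjusted p from limma under 0.05. Over all 8480 genes 29.6% rose and 36.8% fell (66.4% in either direction), so the share of proteasome genes called, 21 of 41, was no higher than that of all genes. The median difference was 0.03 on the log2 scale over the 41 genes and -0.02 over all genes. The 21 called genes moved the same way in 4 of 4 mice, and in 19 of them the stimulated and unstimulated arrays did not overlap. The genes were called on these same arrays, so neither count is separate support, and neither was made over all genes. Fewer cells of a type and less RNA per cell cannot be told apart in such samples.

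Psmb8 replaces Psmb5 in the immunoproteasome, Psmb9 replaces Psmb6 and Psmb10 replaces Psmb7. Psmb9 had log2 intensities, here for mice 1 to 4 in turn, of 10.92, 10.96, 10.86 and 10.77 in stimulated cells with isoform A, 11.08, 11.08, 11.02 and 10.63 with isoform B and 10.90, 10.66, 10.83 and 10.67 in the mock group after stimulation, against 12.16, 12.28, 12.20 and 12.31 in unstimulated cells with isoform A. Psmb10 had 11.19, 10.94, 10.95 and 10.96 in stimulated cells with isoform A, 11.30, 11.18, 11.22 and 10.70 with isoform B and 10.93, 10.85, 10.94 and 11.01 in the mock group after stimulation, against 12.35, 12.23, 12.28 and 12.27 in unstimulated cells with isoform A. Each of the 12 stimulated arrays lay below each of the 4 unstimulated arrays for both genes. The same held for Psmb8, which had 8.97, 8.54, 8.72 and 8.67 in stimulated cells with isoform A, 8.89, 8.92, 8.76 and 8.31 with isoform B and 8.34, 8.43, 8.64 and 8.37 in the mock group after stimulation, against 10.01, 9.83, 9.87 and 9.82 in unstimulated cells with isoform A. In isoform A cells Psmb9 fell by 1.36 ± 0.10 on the log2 scale (2.56-fold, adjusted p = 2.71e-09), Psmb10 by 1.28 ± 0.11 (2.43-fold, adjusted p = 1.88e-08) and Psmb8 by 1.16 ± 0.13 (2.23-fold, adjusted p = 3.43e-07). Errors after differences are standard errors of the fit with n = 4 arrays per group, and adjusted p-values are from limma over all genes. A further probe of Psmb10 gave -1.12 ± 0.11.

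**Figure D1:**
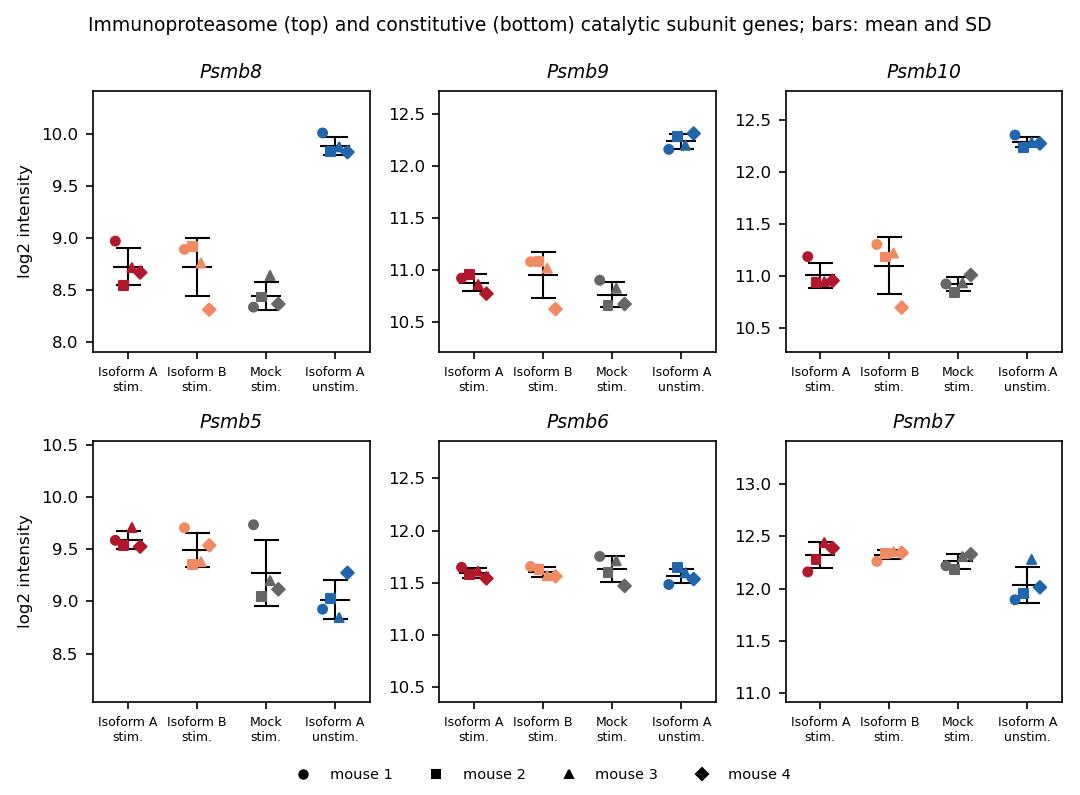
Log2 intensity of the immunoproteasome genes Psmb8, Psmb9 and Psmb10 and of their constitutive counterparts Psmb5, Psmb6 and Psmb7 on each array, with a point per mouse and bars for the mean and SD of 4 arrays. The 12 stimulated arrays lie below the 4 unstimulated arrays for the immunoproteasome genes, and the levels of different genes are not comparable because each has its own probe.

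Of their 3 constitutive counterparts 2 rose and none fell in this fit, where 29.6% of all genes rose and 36.8% fell. Psmb5, the chymotrypsin-like subunit, had 9.59, 9.54, 9.71 and 9.53 in isoform A stimulated cells, against 8.93, 9.03, 8.84 and 9.27 in isoform A unstimulated cells. It rose by 0.57 ± 0.14 (adjusted p = 0.00147), and the groups did not overlap. Psmb7, the trypsin-like subunit, had 12.16, 12.28, 12.44 and 12.39 in isoform A stimulated cells, against 11.89, 11.95, 12.28 and 12.01 in unstimulated cells. These groups overlapped, but each mouse moved up, and the gene rose by 0.28 ± 0.09 (adjusted p = 0.0119). Further probes of Psmb7 gave 0.50 ± 0.10 and 0.64 ± 0.12. Psmb6, the caspase-like subunit, averaged 11.59 ± 0.05 in isoform A stimulated cells and 11.56 ± 0.07 in unstimulated cells (SD, n = 4 each), a difference of 0.03 with a 95% interval of -0.14 to 0.20. The mean difference of the 3 immunoproteasome genes in mice 1 to 4 was -1.15, -1.30, -1.28 and -1.34, and that of the 3 constitutive genes was 0.36, 0.26, 0.35 and 0.21.

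The upstream sequences of Psmb8, Psmb9 and Psmb10 are shown with that of Psme3, the proteasome gene with the largest rise, because the first set of genes fell together. Each is the 250 bases before the RefSeq transcription start on GRCm38.p6, written 5′ to 3′ on the gene's strand, and capitals mark matches to any of 6 motifs searched on both strands. Psmb8 lies at chr17:34197945-34198194 on the plus strand, Psmb9 at chr17:34187331-34187580 on the minus strand, Psmb10 at chr8:105938393-105938642 on the minus strand and Psme3 at chr11:101315963-101316212 on the plus strand.
Psmb8: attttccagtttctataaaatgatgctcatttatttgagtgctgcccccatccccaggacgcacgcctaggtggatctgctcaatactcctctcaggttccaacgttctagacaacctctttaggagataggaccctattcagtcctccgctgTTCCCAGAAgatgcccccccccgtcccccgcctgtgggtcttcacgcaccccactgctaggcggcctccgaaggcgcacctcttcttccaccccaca
Psmb9: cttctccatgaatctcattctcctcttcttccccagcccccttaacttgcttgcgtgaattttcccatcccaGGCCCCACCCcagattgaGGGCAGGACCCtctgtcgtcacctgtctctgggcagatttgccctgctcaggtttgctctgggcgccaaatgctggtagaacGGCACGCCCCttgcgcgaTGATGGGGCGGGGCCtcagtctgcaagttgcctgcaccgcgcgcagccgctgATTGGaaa
Psmb10: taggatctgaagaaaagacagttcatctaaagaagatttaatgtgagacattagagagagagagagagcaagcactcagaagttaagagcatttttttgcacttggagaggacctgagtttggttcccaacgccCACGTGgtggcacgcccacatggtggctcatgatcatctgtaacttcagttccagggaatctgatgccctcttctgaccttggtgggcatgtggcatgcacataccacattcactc
Psme3: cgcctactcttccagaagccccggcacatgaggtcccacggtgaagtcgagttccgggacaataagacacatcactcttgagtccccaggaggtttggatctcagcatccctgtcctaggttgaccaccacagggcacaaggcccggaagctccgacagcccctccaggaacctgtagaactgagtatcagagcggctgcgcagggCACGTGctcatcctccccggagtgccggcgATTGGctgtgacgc
The Psmb8 sequence holds TTCCCAGAA, a match to the gamma-activated site TTCNNNGAA, which 8.30% of all 32851 RefSeq mouse windows of 300 bases (250 before and 50 after a start) hold. The Psmb9 sequence holds 5 matches to the NF-kB-like motif (GGG and CC with 5 bases between), found in 50.8% of windows, of which 2 overlap each other and 1 overlaps the match TGATGGGGC to the antioxidant response element core TGANNNNGC, found in 41.3%. It also holds CCAAT, the NF-Y box, on the opposite strand, as Psme3 does (37.4% of windows). Psmb10 and Psme3 hold the E-box CACGTG (7.15%). No sequence of these 4 holds the interferon-stimulated response element (TTTC repeated after 2 bases), which is in 3.44% of windows. Of the 35 proteasome genes with a window, the antioxidant core was in 20, the NF-kB-like motif in 19, the NF-Y box in 11, the interferon element in 4, the E-box in 4 and the gamma-activated site in 3. A match is a description of letters and not a bound site.

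Psmb9, Tap1, Psmb8 and Tap2 follow each other in that order in the RefSeq annotation of mouse chromosome 17. Tap1 and Tap2 encode the peptide transporter that carries proteasome products into the endoplasmic reticulum. Tap2 had 9.75, 9.48, 9.33 and 9.42 in isoform A stimulated cells, against 11.34, 11.14, 10.67 and 11.12 in isoform A unstimulated cells. It fell by 1.57 ± 0.14 (adjusted p = 3.11e-08), and Tap1 fell by 0.56 ± 0.11 (adjusted p = 0.000186). Psmb10 lies on another chromosome.

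Among activators, Psme3 encodes the gamma activator, a nuclear ring that opens the core without ubiquitin. Its log2 intensities were 12.27, 12.42, 12.31 and 12.45 in stimulated cells with isoform A, 12.20, 12.51, 12.34 and 12.32 with isoform B and 12.16, 12.34, 12.34 and 12.16 in the mock group after stimulation, against 10.92, 10.95, 10.99 and 11.08 in unstimulated cells with isoform A. The stimulated arrays all lay above the unstimulated ones. It rose by 1.38 ± 0.09 in isoform A cells (2.60-fold, adjusted p = 2.32e-10). Psme1 and Psme2 encode the alpha and beta chains of the interferon-inducible activator. Psme2 averaged 9.88 ± 0.10 in isoform A stimulated cells and 9.57 ± 0.19 in unstimulated cells (SD) and rose by 0.31 ± 0.11 (adjusted p = 0.0182). Psme1 averaged 13.04 ± 0.07 in isoform A stimulated cells and 13.04 ± 0.08 in unstimulated cells, with an interval of -0.16 to 0.16 for the difference. Psme4, a further nuclear activator, differed by -0.05 ± 0.08 (adjusted p = 0.574). Psme1 and Psme2 are separated by 1 gene, Emc9, on chromosome 14.

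Of the 10 non-ATPase subunits of the regulatory particle 7 rose and 1 fell, where 29.6% of all genes rose and 36.8% fell. With arrays scaled to a common median 5 of them rose and 0 fell, where 1651 of 8480 genes rose and 3655 fell. Psmd11, a lid scaffold subunit, had 8.60, 8.73, 8.90 and 8.71 in stimulated cells with isoform A, 8.58, 8.64, 8.71 and 8.60 with isoform B and 8.76, 8.55, 8.64 and 8.76 in the mock group after stimulation, against 7.36, 7.45, 7.46 and 7.65 in unstimulated cells with isoform A. It rose by 1.26 ± 0.09 (2.39-fold, adjusted p = 1.02e-09), and the 12 stimulated arrays all lay above the 4 unstimulated ones. Psmd12, another lid scaffold subunit, rose by 0.79 ± 0.11 (adjusted p = 3.66e-06). Psmd14 is the lid's deubiquitinase, which removes the ubiquitin chain, and Psmd7 is its partner. Psmd14 had 9.52, 9.64, 9.89 and 9.96 in isoform A stimulated cells, against 9.07, 8.92, 8.77 and 9.17 in unstimulated cells, and rose by 0.77 ± 0.13 (adjusted p = 5.09e-05). Psmd7 rose by 0.51 ± 0.10 (adjusted p = 0.000239). The base scaffold gene Psmd1 rose by 0.89 ± 0.10, and the lid genes Psmd6 and Psmd8 rose by 0.44 ± 0.14 and 0.43 ± 0.11 (adjusted p from 6.2e-07 to 0.0114). The lid subunit Psmd13 went the other way, with 11.95, 11.73, 11.96 and 11.84 in isoform A stimulated cells, against 12.25, 12.13, 12.29 and 12.25 in unstimulated cells, a fall of 0.36 ± 0.08 (adjusted p = 0.000423). Psmd2, the other base scaffold, and Psmd4, a ubiquitin receptor, differed by 0.24 ± 0.20 and -0.12 ± 0.08 and did not pass the test. Psmd2 and Psmd6 had raw intensities of 135.2 to 216.5 and 152.1 to 207.0, close to the array medians of 121.8 to 138.8.

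**Figure D2:**
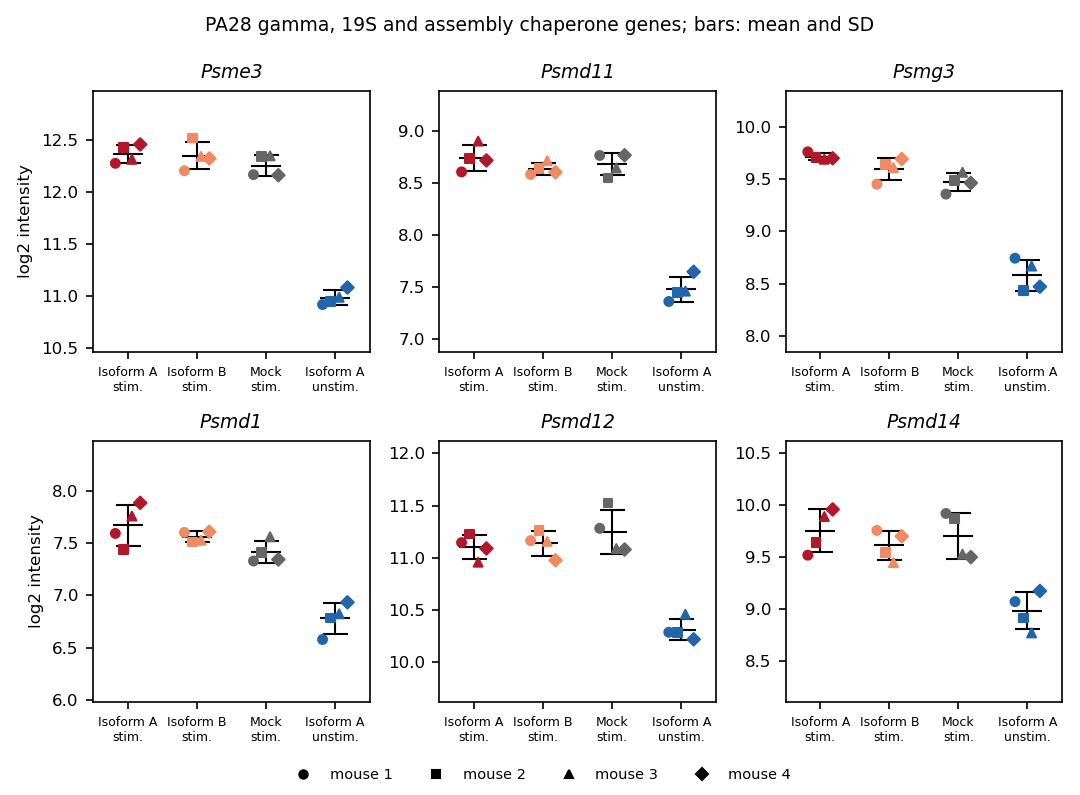
Log2 intensity of Psme3, Psmd11, Psmg3, Psmd1, Psmd12 and Psmd14 on each array, with a point per mouse and bars for the mean and SD of 4 arrays. The 4 isoform A unstimulated arrays lie below the 12 stimulated arrays in all 6 panels.

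Of the 6 ATPases, which form the ring that unfolds substrates, 1 was called, where 66.4% of all genes were. Psmc5 had 11.05, 10.97, 10.88 and 10.70 in isoform A stimulated cells, against 10.44, 10.63, 10.61 and 10.45 in unstimulated cells, and it rose by 0.37 ± 0.09 (adjusted p = 0.00224). Psmc2 had the lowest difference, -0.03 ± 0.07. Psmc6 was detected on 1 isoform A stimulated, 0 isoform B stimulated, 2 mock stimulated and 1 unstimulated array, so its level is hardly measured here. Among the 5 alpha ring genes measured, Psma3 rose by 0.20 ± 0.08 (adjusted p = 0.0435) and Psma7 had the lowest difference, -0.17 ± 0.12 (adjusted p = 0.22). Among the structural beta genes, Psmb1 fell by 0.30 ± 0.07 (adjusted p = 0.00106), with 12.05 to 12.14 in isoform A stimulated cells, against 12.32 to 12.42 in unstimulated cells. Psmb2, Psmb3 and Psmb4 differed by 0.00 to -0.16 and did not pass the test.

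Assembly factors went both ways. Psmg3, a chaperone of alpha ring assembly, had 9.76, 9.71, 9.69 and 9.70 in stimulated cells with isoform A, 9.45, 9.64, 9.61 and 9.69 with isoform B and 9.36, 9.49, 9.57 and 9.47 in the mock group after stimulation, against 8.74, 8.43, 8.67 and 8.47 in unstimulated cells with isoform A. It rose by 1.14 ± 0.09 (2.20-fold, adjusted p = 3.41e-09), and the stimulated and unstimulated arrays did not overlap. Psmg1 and Psmg2, which act as a pair in the same step, differed by 0.14 ± 0.09 and -0.13 ± 0.15 and did not pass. Of the chaperones that help the ATPases assemble, Psmd9 rose by 0.67 ± 0.19 (adjusted p = 0.00552), Psmd10 fell by 0.30 ± 0.08 (adjusted p = 0.00421) and Psmd5 differed by 0.14 ± 0.13 (adjusted p = 0.379). The raw intensities of Psmd9, 139.8 to 204.1, were close to the array medians of 121.8 to 138.8. Psmd10 is uncertain, because 1 of its 2 other probes gave 0.01 ± 0.09 and the other -0.24 ± 0.11. Of the 10 other probes of called genes, 9 had the sign of the brightest one, among them Psmd12 (1.32 ± 0.14), Psmd7 (0.97 ± 0.18), Psmd11 (0.81 ± 0.17) and Psmc5 (0.52 ± 0.09).

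Several calls depend on how arrays are scaled. When arrays were scaled to a common median rather than quantile normalized, the median difference over all genes was -0.22, 1651 genes rose and 3655 fell, and 9 proteasome genes rose and 4 fell. The calls of Psmb1, Psmb5, Psmc5, Psmd6, Psmd8, Psmd9, Psmd13 and Psme2 were lost, the differences of 12 of the 41 genes turned sign (of those called, Psmd6 at -0.05), and Psmd1 was at 0.36. The 3 immunoproteasome genes, Psme3, Psmg3, Psmd7, Psmd11, Psmd12 and Psmd14 kept their direction and call under 22 of 22 alternatives. So did Psmd1 and Psmd10 in isoform A cells, with adjusted p-values from limma of up to 0.0447 and 0.0410. Psmd10 stays uncertain because of its other probes.

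**Figure D3:**
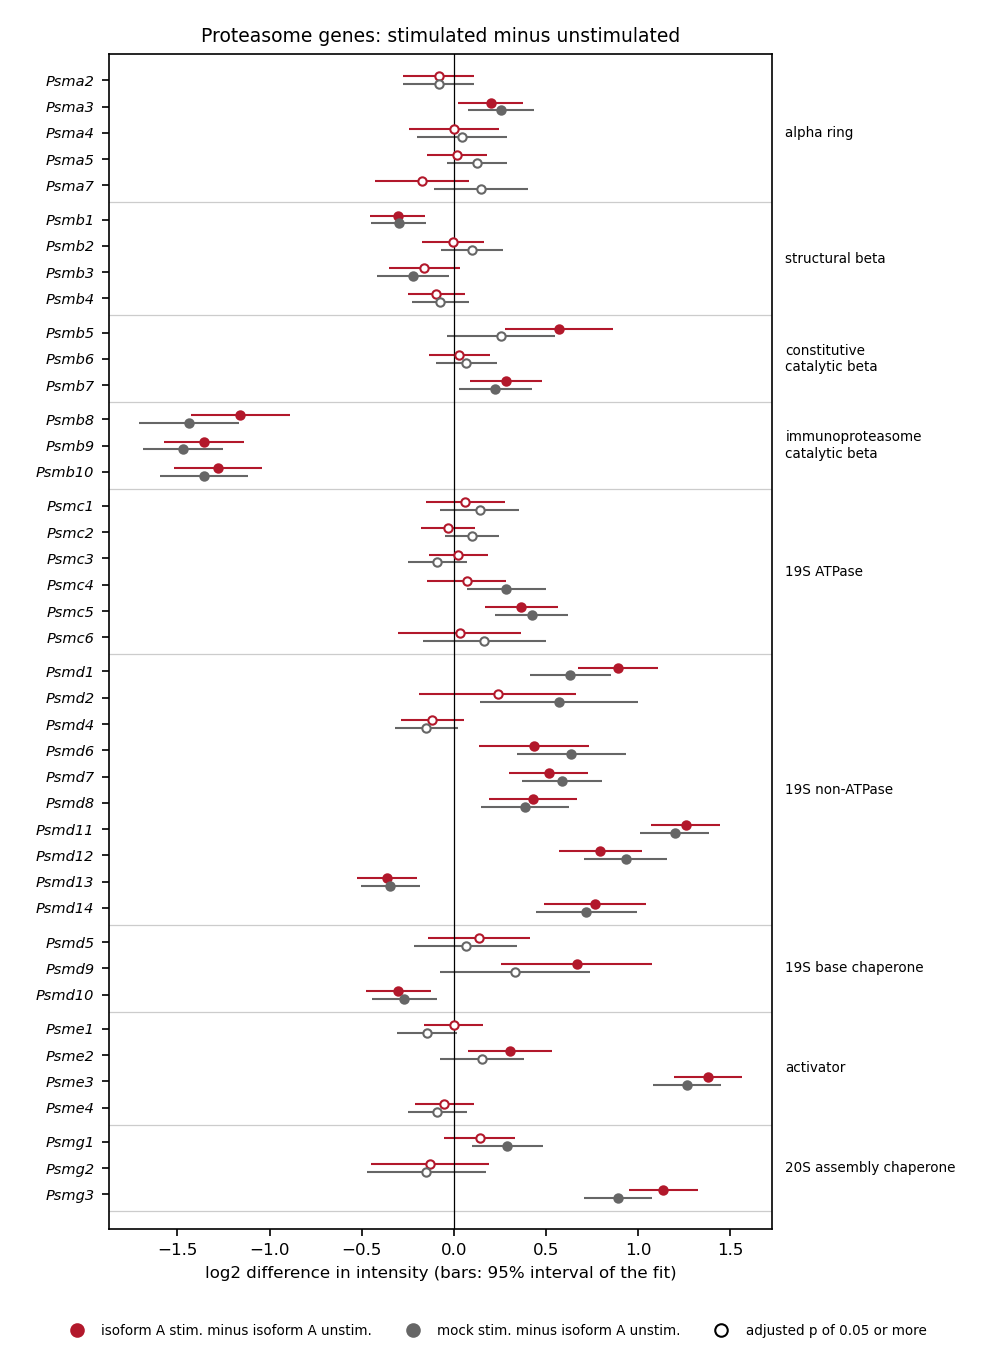
Log2 difference of 41 proteasome genes between stimulated and unstimulated cells, grouped by role, for isoform A stimulated (red) and mock stimulated cells (grey), both minus isoform A unstimulated cells. Points are estimates and bars 95% intervals of the fit, filled where the adjusted p is under 0.05, and Psmb8, Psmb9 and Psmb10 stand at -1.16 to -1.47 in both comparisons.

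Mock stimulated cells, which hold no MALT1 transgene, were set against the same unstimulated isoform A arrays. This comparison shares those 4 arrays with the first and differs in the transgene as well as in stimulation. Of 41 proteasome genes 15 rose and 7 fell, against 29.7% and 36.2% of all genes (65.9% in either direction). The called genes moved the same way in 4 of 4 mice, and 21 of 22 showed no overlap of groups. As before, these counts rest on the arrays that gave the calls and were not made over all genes. The immunoproteasome genes were again lowest: Psmb9 fell by 1.47 ± 0.10 (2.77-fold, adjusted p = 1.03e-09), Psmb8 by 1.44 ± 0.13 (2.71-fold, adjusted p = 2.28e-08) and Psmb10 by 1.36 ± 0.11 (2.56-fold, adjusted p = 9.38e-09). Psme3 rose by 1.27 ± 0.09 (2.41-fold), Psmd11 by 1.20 ± 0.09, Psmd12 by 0.93 ± 0.11, Psmg3 by 0.89 ± 0.09, Psmd14 by 0.72 ± 0.13 and Psmd7 by 0.59 ± 0.10 (adjusted p from 7.8e-10 to 0.000101). In the non-ATPase class 8 of 10 rose and Psmd13 fell by 0.34 ± 0.08. With median scaling 4 of this class rose and 0 fell, where 1589 of 8480 genes rose and 3583 fell.

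Several smaller members were called in 1 of the 2 comparisons. Psmc4 rose by 0.28 ± 0.10, Psmg1 by 0.29 ± 0.09 and Psmd2 by 0.57 ± 0.20, and Psmb3 fell by 0.22 ± 0.09, in mock stimulated cells (adjusted p from 0.00996 to 0.0449). The other probe of Psmd2, detected on 4 arrays, gave 0.26 ± 0.18. Psmb5 differed there by 0.26 ± 0.14, Psme2 by 0.15 ± 0.11 and Psmd9 by 0.33 ± 0.19 and did not pass. Isoform A against mock, both stimulated, called 0 proteasome genes. That comparison is of stimulated levels, and without unstimulated mock arrays it cannot test whether the 2 responses differ. Psma3 rose by 0.26 ± 0.08, Psmb7 by 0.23 ± 0.09 and Psmc5 by 0.42 ± 0.09, while Psmb1 fell by 0.30 ± 0.07 and Psmd10 by 0.27 ± 0.08. The lowest alpha ring, ATPase and core chaperone values were those of Psma2 (-0.08 ± 0.09), Psmc3 (-0.09 ± 0.08) and Psmg2 (-0.15 ± 0.15), and Psme1 and Psme4 differed by -0.15 ± 0.08 and -0.09 ± 0.08, none past the test. With median scaling 1589 of all genes rose and 3583 fell, 8 proteasome genes rose and 3 fell, 11 of the 22 calls were lost (Psmg1 turned to -0.02), and Psmd1, at 0.63 ± 0.10 here (adjusted p = 3.48e-05), was at 0.12.

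Markers of the cells in the samples moved with stimulation too. The summed normalised intensity of the 5 CD4 T cell markers was 19939 to 21586 in isoform A stimulated cells and 20416 to 21870 in mock stimulated cells, against 30302 to 32417 in isoform A unstimulated cells, and 3 of 5 (Cd3d, Cd3e and Cd3g) fell in each comparison. The sum of 6 CD8 and cytotoxic markers was 15821 to 24052 in isoform A stimulated cells and 14119 to 22278 in mock stimulated cells, against 14617 to 21918 in unstimulated cells, with 1 higher and 2 lower in isoform A cells and 1 each way in mock cells. Over all genes 29.6% rose and 36.8% fell in isoform A cells, and 29.7% rose and 36.2% fell in mock cells. The sum of the 5 B cell markers was 329 to 472 in unstimulated cells, and that of the 2 erythroid markers 59.5 to 92.5. Their stimulated sums are given further on. Of the B cell markers 2 (Cd74 and H2-Ab1) were higher and 1 (Cd79b) lower in isoform A cells, and 0 higher and 1 lower in mock cells. Of the erythroid markers 1 was higher in isoform A cells (Car2, by 1.11). Both were higher in mock cells (Hba-a1 by 2.55 and Car2 by 2.04). The part of all these markers in the proteasome results was not tested.

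Genes that work with the proteasome were read from a list of 34 symbols, of which 14 were measured. In isoform A cells 6 rose and 1 fell, and likewise in mock cells, so 7 of 14 were called in each, where 66.4% and 65.9% of all genes were. Nfe2l1, the transcription factor that drives proteasome genes when the particle is inhibited, had 10.43, 10.55, 10.42 and 10.49 in stimulated cells with isoform A, 10.34, 10.39, 10.44 and 10.29 with isoform B and 10.46, 10.54, 10.38 and 10.61 in the mock group after stimulation, against 8.93, 8.89, 8.99 and 8.99 in unstimulated cells with isoform A. The stimulated arrays all lay above the unstimulated ones, and the gene rose by 1.52 ± 0.08 in isoform A cells (2.87-fold, adjusted p = 1.08e-11) and by 1.54 ± 0.08 in mock cells. The shuttle factors Ubqln4 and Rad23b, which carry ubiquitinated proteins to the proteasome, rose by 1.57 ± 0.11 and 0.85 ± 0.13 in isoform A cells and by 1.30 ± 0.11 and 0.93 ± 0.13 in mock cells. Nploc4, a cofactor of the unfoldase Vcp, rose by 0.75 ± 0.12 and 0.54 ± 0.12, Ecpas, a proteasome adaptor, by 0.43 ± 0.15 and 0.63 ± 0.15, and Ube3c, a proteasome-bound ubiquitin ligase, by 0.41 ± 0.09 and 0.35 ± 0.09, in isoform A and in mock cells. Zfand2a, a stress-induced proteasome-associated protein, fell by 0.47 ± 0.08 in isoform A cells and by 0.43 ± 0.08 in mock cells. Pomp, the core maturation factor, differed by 0.04 ± 0.08 and 0.12 ± 0.08. With median scaling 3 rose and 4 fell in isoform A cells, where 1651 of all 8480 genes rose and 3655 fell. In mock cells 3 rose and 2 fell with that scaling, where 1589 of all genes rose and 3583 fell.

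The list of MHC class I antigen processing held 22 symbols, of which 19 were measured: 4 rose and 9 fell in isoform A cells, and 2 rose and 11 fell in mock cells. The 13 of 19 called in each comparison are near the share over all genes, 66.4% with isoform A (29.6% higher and 36.8% lower) and 65.9% in mock cells (29.7% higher and 36.2% lower). Irf1, a transcription factor that in human cells binds the promoter shared by the Psmb9 and Tap1 genes, had 11.31, 11.51, 11.16 and 11.18 in stimulated cells with isoform A, 11.12, 11.22, 11.22 and 11.37 with isoform B and 11.32, 11.66, 11.45 and 11.38 in the mock group after stimulation, against 13.34, 13.33, 13.41 and 13.42 in unstimulated cells with isoform A. It fell by 2.09 ± 0.10 in isoform A cells (4.24-fold, adjusted p = 4.78e-12) and fell by 1.92 ± 0.10 in mock cells, with no overlap of stimulated and unstimulated arrays. The interferon gamma receptor gene Ifngr1 had 7.29, 7.19, 6.95 and 7.53 in isoform A stimulated cells, against 10.68, 10.60, 10.66 and 10.57 in unstimulated cells, and fell by 3.38 ± 0.15 (10.4-fold). Its ligand gene Ifng rose by 5.84 ± 0.25 (57.2-fold, adjusted p = 1.37e-12) in isoform A cells and by 5.53 ± 0.25 in mock cells. Stat2, an interferon signal transducer, fell by 1.74 ± 0.22, Nlrc5, the transactivator of MHC class I genes, by 1.31 ± 0.08, Irf2 by 0.91 ± 0.08 and Pdia3, a member of the peptide loading complex, by 0.77 ± 0.09 in isoform A cells. Thop1, a cytosolic peptidase that destroys such peptides, rose by 1.32 ± 0.14 and 1.54 ± 0.14 in isoform A and mock cells. The class I heavy chain genes differed: H2-K1 rose by 0.42 ± 0.14 in isoform A cells (adjusted p = 0.016), H2-D1 differed by 0.11 ± 0.14 and the light chain gene B2m by -0.11 ± 0.10. With median scaling 2 rose and 11 fell in isoform A cells, where 1651 of all 8480 genes rose and 3655 fell. In mock cells 2 rose and 13 fell with that scaling, where 1589 of all genes rose and 3583 fell.

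**Figure D4:**
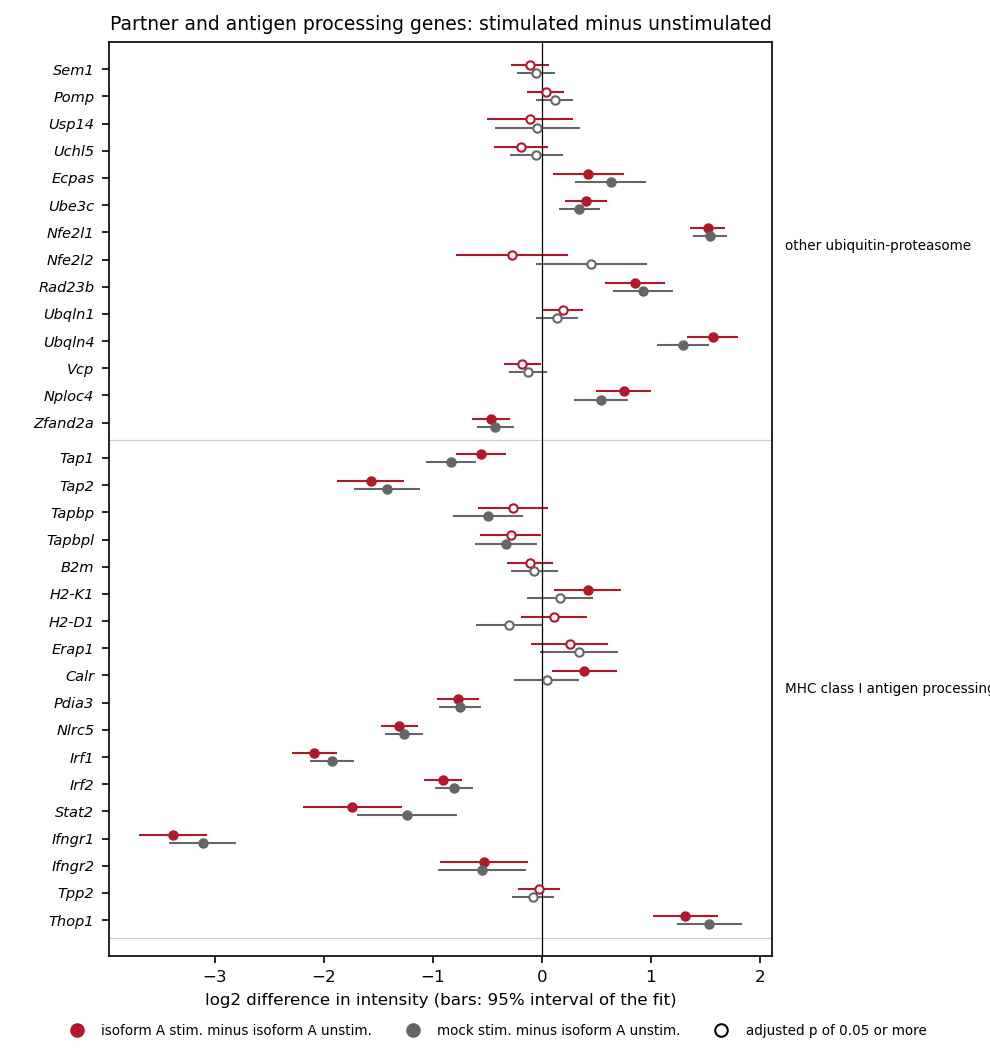
Log2 difference of 14 genes that work with the proteasome and 18 genes of MHC class I antigen processing, for isoform A stimulated (red) and mock stimulated cells (grey), both minus isoform A unstimulated cells. Bars are 95% intervals of the fit and filled points have an adjusted p under 0.05. Ifng, at 5.84 and 5.53, is left out for scale, and Irf1, Tap2, Nlrc5 and Ifngr1 lie below 0 in both comparisons.

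Isoform A was set against mock, both stimulated, to ask what MALT1 isoform A adds. No proteasome gene passed the test (0 of 41, smallest adjusted p from limma 0.133), where 4.86% of all genes did (2.61% higher and 2.25% lower). Of the 41 genes 5 had an unadjusted p under 0.05, as did 1609 of all 8480 genes. Psmb8 averaged 8.72 ± 0.18 in isoform A cells and 8.44 ± 0.14 in mock cells (SD, n = 4 each), a difference of 0.28 ± 0.13 with an interval of 0.01 to 0.55 and an adjusted p of 0.244. Psmb9 and Psmb10 differed by 0.11 ± 0.10 and 0.08 ± 0.11. Psmb5, Psmb6 and Psmb7 differed by 0.31 ± 0.14, -0.04 ± 0.08 and 0.06 ± 0.09. Psmg3 had the smallest p, with 9.76, 9.71, 9.69 and 9.70 in isoform A cells, against 9.36, 9.49, 9.57 and 9.47 in mock cells, a difference of 0.25 ± 0.09 that did not pass although the groups did not overlap.

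The extremes of the other classes did not pass either. Psma7 (-0.32 ± 0.12) and Psma2 (0.00 ± 0.09) bounded the alpha ring, Psmb2 (-0.10 ± 0.08) and Psmb3 (0.06 ± 0.09) the structural beta subunits, and Psmc4 (-0.21 ± 0.10) and Psmc3 (0.11 ± 0.08) the ATPases. Psmd2 (-0.33 ± 0.20) and Psmd9 (0.34 ± 0.19) bounded the regulatory particle's other genes, and Psmg1 differed by -0.15 ± 0.09. The activator genes Psme1, Psme2, Psme3 and Psme4 differed by 0.04 to 0.16. In the partner and class I lists 0 of 14 and 0 of 19 genes passed. An unadjusted p under 0.05 was found for 2 and 4 of them, and for 1609 of all 8480 genes. Nfe2l1 and Irf1 differed by -0.02 ± 0.08 and -0.16 ± 0.10. H2-D1 differed by 0.41 ± 0.14 in the fit without a block and did not pass. With the mouse as a block it passed, so that 1 class I gene was higher there.

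Isoform B was set against mock, both stimulated, and shares the mock arrays with the comparison before. Of 41 proteasome genes 1 was higher, where 0.908% of all genes were higher and 0.955% lower (1.86% in either direction). Of the 41 genes 3 had an unadjusted p under 0.05, as did 1017 of all 8480 genes. The higher gene, Psmd5, encodes a chaperone that holds an ATPase module during assembly of the regulatory particle. It had 7.93, 7.65, 7.84 and 7.72 in isoform B stimulated cells, against 7.42, 6.92, 7.34 and 7.24 in mock stimulated cells. Isoform A stimulated cells had 7.58, 7.47, 7.10 and 7.06 and isoform A unstimulated cells 7.26, 7.10, 7.29 and 7.02. The isoform B arrays lay above all mock arrays, and Psmd5 was higher by 0.55 ± 0.13 (1.47-fold, adjusted p = 0.0403), in 4 of 4 mice. The call was lost with median scaling (adjusted p = 0.579), without a detection filter (0.0613), when only these 2 groups were fitted (0.0909) and in 11 of 12 fits that left out a mouse or an array.

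Psmb8, Psmb9 and Psmb10 differed by 0.28 ± 0.13, 0.19 ± 0.10 and 0.17 ± 0.11 between isoform B and mock (adjusted p from 0.403 to 0.621). The mean difference of the 3 genes was 0.37, 0.41, 0.20 and -0.14 in mice 1 to 4, so mouse 4 went the other way. Psmb5, Psmb6 and Psmb7 differed by 0.22 ± 0.14, -0.03 ± 0.08 and 0.06 ± 0.09, and Psme1 to Psme4 by -0.01 to 0.09. Psmg1 was lowest among the core chaperones, at -0.28 ± 0.09 with no overlap of groups (adjusted p = 0.162), and Psmg3 highest at 0.13 ± 0.09. The extremes elsewhere were Psma5 (-0.08 ± 0.08) and Psma2 (0.02 ± 0.09), Psmb2 (-0.05 ± 0.08) and Psmb4 (0.04 ± 0.07), Psmc1 (-0.08 ± 0.10) and Psmc3 (0.10 ± 0.08), and, among the non-ATPase genes, Psmd12 (-0.10 ± 0.11) and Psmd1 (0.15 ± 0.10). The base chaperone gene Psmd9 differed by 0.35 ± 0.19 and did not pass (adjusted p = 0.524). Psmc6 was detected on 0 of 4 isoform B arrays, so its differences from isoform B are neither printed nor ranked in the text. The gene is still counted and plotted among the proteasome genes. In the partner and class I lists 0 genes passed, with 0 and 3 at an unadjusted p under 0.05, where 1017 of all 8480 genes were.

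**Figure D5:**
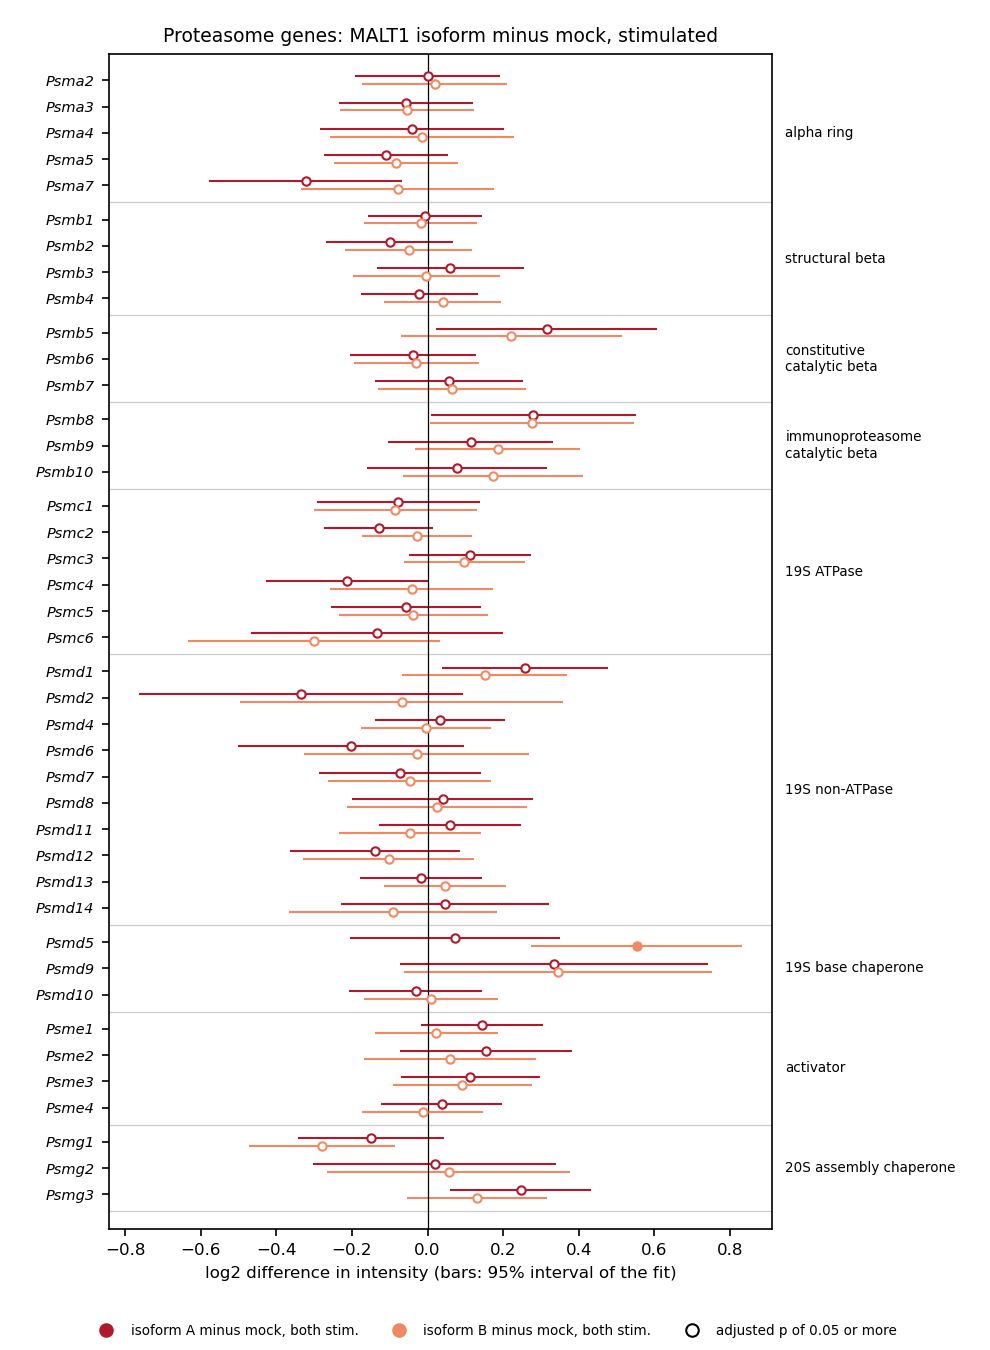
Log2 difference of 41 proteasome genes between stimulated cells with MALT1 isoform A (red) or isoform B (orange) and mock stimulated cells, grouped by role. Bars are 95% intervals of the fit, and the single filled point, Psmd5 in isoform B against mock at 0.55, has an adjusted p under 0.05.

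Some markers of other cells differed between these groups. The summed normalised intensity of the 5 measured B cell markers was 584 to 1002 in isoform A cells and 380 to 1736 in isoform B cells, against 255 to 338 in mock cells. Cd74 and H2-Ab1, 2 of 5, were higher with each isoform, where 2.61% of all genes were with isoform A and 0.908% with isoform B. H2-Aa differed by 0.41 and 0.63, Cd79b by 0.03 and 0.18 and Ms4a1 by 0.01 and -0.05, with isoform A and B in turn, and did not pass. Both measured erythroid markers were lower with isoform A and 1 was lower with isoform B, where 2.25% and 0.955% of all genes were. Their sum was 84.7 to 143 in isoform A cells and 72.5 to 109 in isoform B cells, against 194 to 1049 in mock cells. Ctss, the 1 measured gene of the macrophage list, was at 91.7 to 153 in isoform A cells and 85.5 to 110 in isoform B cells, against 92.8 to 112 in mock cells. Their part in the Psmd5 difference was not tested.

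Isoform A was set against isoform B, both stimulated, to ask whether the splice forms differ. No proteasome gene passed (0 of 41, smallest adjusted p from limma 0.202), where 0.212% of all genes did (0.189% higher and 0.0236% lower). An unadjusted p under 0.05 was found for 815 of all 8480 genes and for 1 of the 41. Psmd5 was the member with that p, at -0.48 ± 0.13, lower with isoform A in 4 of 4 mice and with no overlap of groups. Psmb8, Psmb9 and Psmb10 differed by 0.00 ± 0.13, -0.07 ± 0.10 and -0.10 ± 0.11, with 95% intervals between -0.33 and 0.27. Psmb5, Psmb6 and Psmb7 differed by 0.09 ± 0.14, -0.01 ± 0.08 and -0.01 ± 0.09, and Psme1 to Psme4 by 0.02 to 0.12. Psma7 (-0.24 ± 0.12), Psmc4 (-0.17 ± 0.10), Psmb4 (-0.06 ± 0.07), Psmb3 (0.06 ± 0.09), Psmd2 (-0.27 ± 0.20), Psmd14 (0.14 ± 0.13), Psmg1 (0.13 ± 0.09) and Psmg2 (-0.04 ± 0.15) were at the ends of their classes. In the partner and class I lists 0 genes passed, with 2 and 0 at an unadjusted p under 0.05, where 815 of all 8480 genes were. A p that misses the threshold does not show that the isoforms act alike on these genes.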

How the data were processed

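RNA of 16 samples was measured on Illumina 1-colour bead arrays, per the labels. The deposited intensity of each probe is not normalized, and each has a detection p-value per the file headers, read out with GenomeStudio 2011.1 per the submitters' processing notes. A second table of intensities deposited by the authors, background-subtracted with normalization not given in the sources used here, served as an alternative. With limma 3.58.1 in R 4.3.3, intensities were background-corrected (normexp, offset 16), quantile normalized and put on the log2 scale. Of 25697 probes, 23978 have 1 gene symbol in the platform annotation and 1719 none. The 8480 genes detected on at least 4 arrays were fitted as 4 group means with 12 residual degrees of freedom, Benjamini-Hochberg adjustment over all genes, threshold 0.05, 2-sided. Figures, promoter matches and counts used Python 3.11.15.

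The mouse number pairs arrays: deviations from group means of same-mouse arrays correlated at 0.131 to 0.417 (24 pairs, mean 0.289) and those of other mice at -0.0962 on average (72 pairs). Unless another fit is named, standard errors and adjusted p-values are from the fit without the mouse. A fit with the mouse as a block was an alternative, and it called more of all 8480 genes among stimulated groups. It called 375 higher and 370 lower for isoform A against mock, where the main fit called 221 and 191. For isoform B against mock it called 165 and 173 (main fit 77 and 81). For isoform A against B it called 34 and 12 (main fit 16 and 2). The fit was also run on simulated data with independent arrays, which does not test it under the pairing seen here. Promoter windows of 35 of the 41 genes came from RefSeq, GRCm38.p6. Named were the catalytic, immunoproteasome and activator genes, the extremes of each class and every called gene. Members and lists were chosen with earlier results of these data known.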

Additional observations from a re-analysis of the deposited data

Results flagged for a closer look

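Of 172 groups of 4 arrays examined (43 genes in 4 groups), 7 held 1 array set far from the other 3 by Dixon's test, where chance gives about 1 in 20. That is no more flags than this rate gives. Psmb9 in isoform B stimulated cells was 10.63 in mouse 4, against 11.02 to 11.08 in the other mice. That array also had the lowest Psmb8 and Psmb10 values of its group. Psmb10 in isoform A stimulated cells was 11.19 in mouse 1, against 10.94 to 10.96 in the others. Psmb1 in isoform A stimulated cells was 12.14 in mouse 3 and 12.05 in the others, whose values were identical, so that the test had to flag it. Psmb7 in isoform B stimulated cells was 12.26 in mouse 1, against 12.34 to 12.35. Psmc3, an ATPase gene, was 10.57 in isoform A stimulated cells of mouse 3, against 10.73 to 10.75, and 10.77 in isoform B stimulated cells of mouse 2, against 10.65 to 10.66. Psmg1 was 8.91 in mock stimulated cells of mouse 1, against 9.03 to 9.04 in the others.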

How the results depend on the processing

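Alternatives covered background correction, scaling, the authors' deposited values, the offset, the detection filter, the probe per gene, array weights, the groups fitted, the mouse as a replicate block, and leaving out each array or mouse. The block changed no call of a proteasome gene; it gave 2 partner genes lower with isoform A stimulation and 1 class I gene higher in isoform A against mock. Median scaling gave, for isoform A stimulation, 9 proteasome genes higher, 3 partner genes higher and 4 lower and 2 class I genes higher. For mock it gave 8 proteasome genes higher and 3 lower, and 3 partner genes higher and 2 lower. Over all 8480 genes median scaling gave 1651 higher and 3655 lower for isoform A stimulation, and 1589 and 3583 for mock. For isoform B against mock, median scaling, no detection filter and fitting only the 2 groups gave 0 proteasome genes higher. For isoform A against mock, no background correction gave 1 higher. Without background correction, with an offset of 50 or with detection on all 16 arrays, 2 partner genes were lower with isoform A stimulation. The cause was not tested.

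Of the genes whose direction reversed, Psmd6 (isoform A stimulation) and Psmg1 (mock) had been called. Median scaling turned, for isoform A stimulation, Psma2 0.11, Psmb2 0.15, Psmb3 0.029, Psmb4 0.17, Psmc1 -0.13, Psmc2 0.14, Psmd2 -0.19, Psmd4 0.063, Psmd6 -0.049, Psmd5 -0.39, Psme1 0.22, Psmg1 -0.18 and Psme3ip1 -0.20. For mock it turned Psma2 0.054, Psmb4 0.16, Psmb5 -0.013, Psmc1 -0.046, Psmd4 0.0072, Psmd5 -0.42, Psme1 0.038, Psme2 -0.021, Psmg1 -0.020 and Psme3ip1 -0.17, and between isoforms Psmb6 0.079 and Psmb7 0.076. The authors' values gave Psma4 -0.0034 and Psmc6 -0.0078 for isoform A stimulation and Psmb7 0.0086 and Psmb8 -0.0020 between isoforms, where the mean of probes gave Psmb7 0.015. Array weights gave Psma4 -0.0021 and Psme1 0.0028 for isoform A stimulation and Psmb8 -0.028 between isoforms. Leaving out arrays turned, for isoform A stimulation, Psma4 (-0.073 to 0.084), Psma5 (-0.029 to 0.046), Psmb2 (-0.050 to 0.034), Psmb6 (-0.014 to 0.062), Psmc2 (-0.075 to 0.0045), Psmc3 (-0.018 to 0.064), Psmc4 (-0.012 to 0.15), Psmc6 (-0.045 to 0.14), Psme1 (-0.046 to 0.037) and Psme4 (-0.11 to 0.012). For mock it turned Psma4 (-0.063 to 0.12), for isoform A against mock Psmb6 (-0.092 to 0.0021), for isoform B against mock Psmb6 (-0.084 to 0.011), and between isoforms Psmb6 (-0.026 to 0.0097), Psmb7 (-0.047 to 0.046) and Psmb8 (-0.13 to 0.13).

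Leaving out arrays or mice gave, for isoform A stimulation, 12 to 15 proteasome genes higher and 6 to 7 lower, 5 to 7 partner genes higher and 1 to 3 lower, and 2 to 4 class I genes higher and 8 to 9 lower. For mock it gave 12 to 15 and 5 to 7 proteasome genes, 6 to 7 partner genes higher, and 2 to 3 class I genes higher and 9 to 11 lower. It gave 0 to 1 proteasome gene higher for isoform A against mock (Psmb5 without mock mouse 1) and for isoform B against mock (Psmd5, lost in 11 of 12), and 0 to 1 partner gene lower for isoform A against mock and against B. Calls were also lost for Psmb3 and Psmb7 in mock cells (9 of 12 each) and for Psma3 with isoform A (8 of 12).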

Other observations

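Psmc3ip and Psme3ip1 match the name pattern of the proteasome genes without being subunits. Psmc3ip, a factor of meiotic recombination, fell by 1.01 ± 0.11 in isoform A stimulated against unstimulated cells (adjusted p from limma 3.61e-07) and by 1.04 ± 0.11 in mock stimulated cells. Psme3ip1, whose product binds the gamma activator, differed by 0.13 ± 0.12 and 0.14 ± 0.12 and did not pass the test.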
